A study of Mus musculus with 15 samples.

Results

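The genes described here carry the MHC class II route of antigen presentation: H2-Aa, H2-Ab1 and H2-Eb1 (chains of the class II molecules), Cd74 (the invariant chain), H2-DMa, H2-DMb1 and H2-Ob (the peptide-loading proteins) and Ciita (the class II transactivator). They were chosen by name, and a gene was measured by every probe set annotated to that gene and no other. Of the 8 genes, 7 were measured in this way, by 15 of the 34945 probe sets that carried 1 gene. The array measured 18194 genes in all. H2-DMb1 had no probe set of its own, and both of its probe sets were shared with the neighbouring H2-DMb2. Where a gene had several probe sets, the brightest on average over the 15 arrays was used for it.

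Each array held RNA of 1 whole aorta, taken from root to bifurcation, of a male C57BL/6 mouse aged 9 weeks. The groups were 4 diabetic Apoe/RAGE null mice (replicates 9 to 12), 3 non-diabetic Apoe/RAGE null mice (replicates 13 to 15), 4 diabetic Apoe null mice (replicates 1 to 4) and 4 non-diabetic Apoe null mice (replicates 5 to 8). All mice thus lacked apolipoprotein E, a lipid carrier whose loss leads to atherosclerosis, and the Apoe/RAGE null mice carried in addition a deletion of Ager, the gene of RAGE, a receptor for advanced glycation end products. Diabetes followed 5 daily injections of streptozotocin, a compound toxic to pancreatic beta cells, at 65 mg/kg from 6 weeks of age. Non-diabetic mice received the citrate buffer. The Apoe/RAGE null mice were bred in the colony of another laboratory, whereas the Apoe null mice were bought, so genotype and colony cannot be told apart. The study asked what diabetes does in each genotype and what RAGE deletion does with and without diabetes.

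MHC class II molecules are pairs of an alpha and a beta chain that show peptides from endocytosed proteins to CD4 T cells. The invariant chain fills their groove until it is degraded in the endosome, H2-DM then exchanges its remnant for peptide, and H2-O restrains H2-DM, mainly in B cells. Ciita is recruited to the promoters of these genes by factors bound to short conserved elements, the X and Y boxes. B cells, dendritic cells and macrophages express the pathway constitutively, and interferon-gamma can induce it in other cells, including cells of the vessel wall.

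The promoters of the members that the reference tables held are shown because the members' levels moved together across the arrays. The sequences are from RefSeq on GRCm38.p6, on the strand of the gene, 5′ to 3′. Capitals mark an X box core (GNAAC) and a Y box (TGATTGG). Both letter patterns and their spacing, with the X core starting 20 to 40 bases before the Y box, were chosen after these sequences had been seen.
H2-Aa, chr17:34287847-34287933, minus strand: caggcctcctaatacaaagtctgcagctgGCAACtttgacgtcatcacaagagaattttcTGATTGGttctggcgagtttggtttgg
H2-Eb1, chr17:34305746-34305832, plus strand: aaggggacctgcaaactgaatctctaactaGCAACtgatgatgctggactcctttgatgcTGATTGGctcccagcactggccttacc
H2-DMb1, chr17:34153068-34153154, plus strand: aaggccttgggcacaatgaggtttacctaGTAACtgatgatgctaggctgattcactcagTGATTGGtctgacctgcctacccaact
H2-Ob, chr17:34238786-34238872, plus strand: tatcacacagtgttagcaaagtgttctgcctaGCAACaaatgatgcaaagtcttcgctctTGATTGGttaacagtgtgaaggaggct
In these 4 promoters the X core began 31, 30, 31 and 28 bases before the Y box. The same pairing was in the promoter of H2-Oa, the partner chain of H2-Ob, whereas that of H2-DMb2 held a Y box with no X core at this spacing. It lay on either strand in 0.569% of the 32851 promoter windows of the same 300 bases, and on the strand of the gene in 0.250%. The Y box alone was in 7.82% of the windows and the X core alone in 84.8%, both strands counted. The 2 windows of H2-DMa held no Y box. Promoter windows were held for 5 of the 8 members, all but H2-Ab1, Cd74 and Ciita, and of these 5 all but H2-DMa had the pairing. The marked boxes are letters in a window, not measured binding sites.

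Before the group differences, the placing of the arrays matters. Of 6 genes on chromosome 17 whose levels separated the non-diabetic genotypes (Decr2, Zfp52, Eme2, Rnf5, Polh and Cyp39a1, chosen with their values known), 6 placed replicates 9 and 10, both labelled diabetic Apoe/RAGE null, nearer to the Apoe null arrays. In replicate 11 this held for 1 of 6, and in replicate 12 for 0 of 6. Ager itself was higher in the 3 non-diabetic Apoe/RAGE null arrays (4.89 to 5.09, log2) than in the 8 Apoe null arrays (4.17 to 4.69), with 4.63 and 4.48 in replicates 9 and 10. Since the sources do not say whether its probe set lies in the deleted part, Ager is no check of the genotype. Fold changes that rest on replicates 9 and 10 are therefore given with and without them. All comparisons come from 1 fit with a shared estimate of the spread within groups, so that replicate 10 also enters the p-values and intervals of comparisons between other groups. Array medians lay between 4.35 and 4.42, and replicate 10 had the lowest mean correlation with the other arrays.

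The main pattern in these genes was a difference between single mice. In replicate 10 the level was the highest of the 15 arrays in 7 of 7 genes, and in 6 of 7 it was at least 1 log2 unit above the next array. Over all genes the corresponding shares were 12.3% and 1.75%. Replicate 2, a diabetic Apoe null mouse, was second in 6 of 7 genes, and replicate 11, labelled diabetic Apoe/RAGE null, came next in 6 of 7. Levels below are log2 values as deposited, and a level of 1 probe set is not set against that of another.

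**Figure D1:**
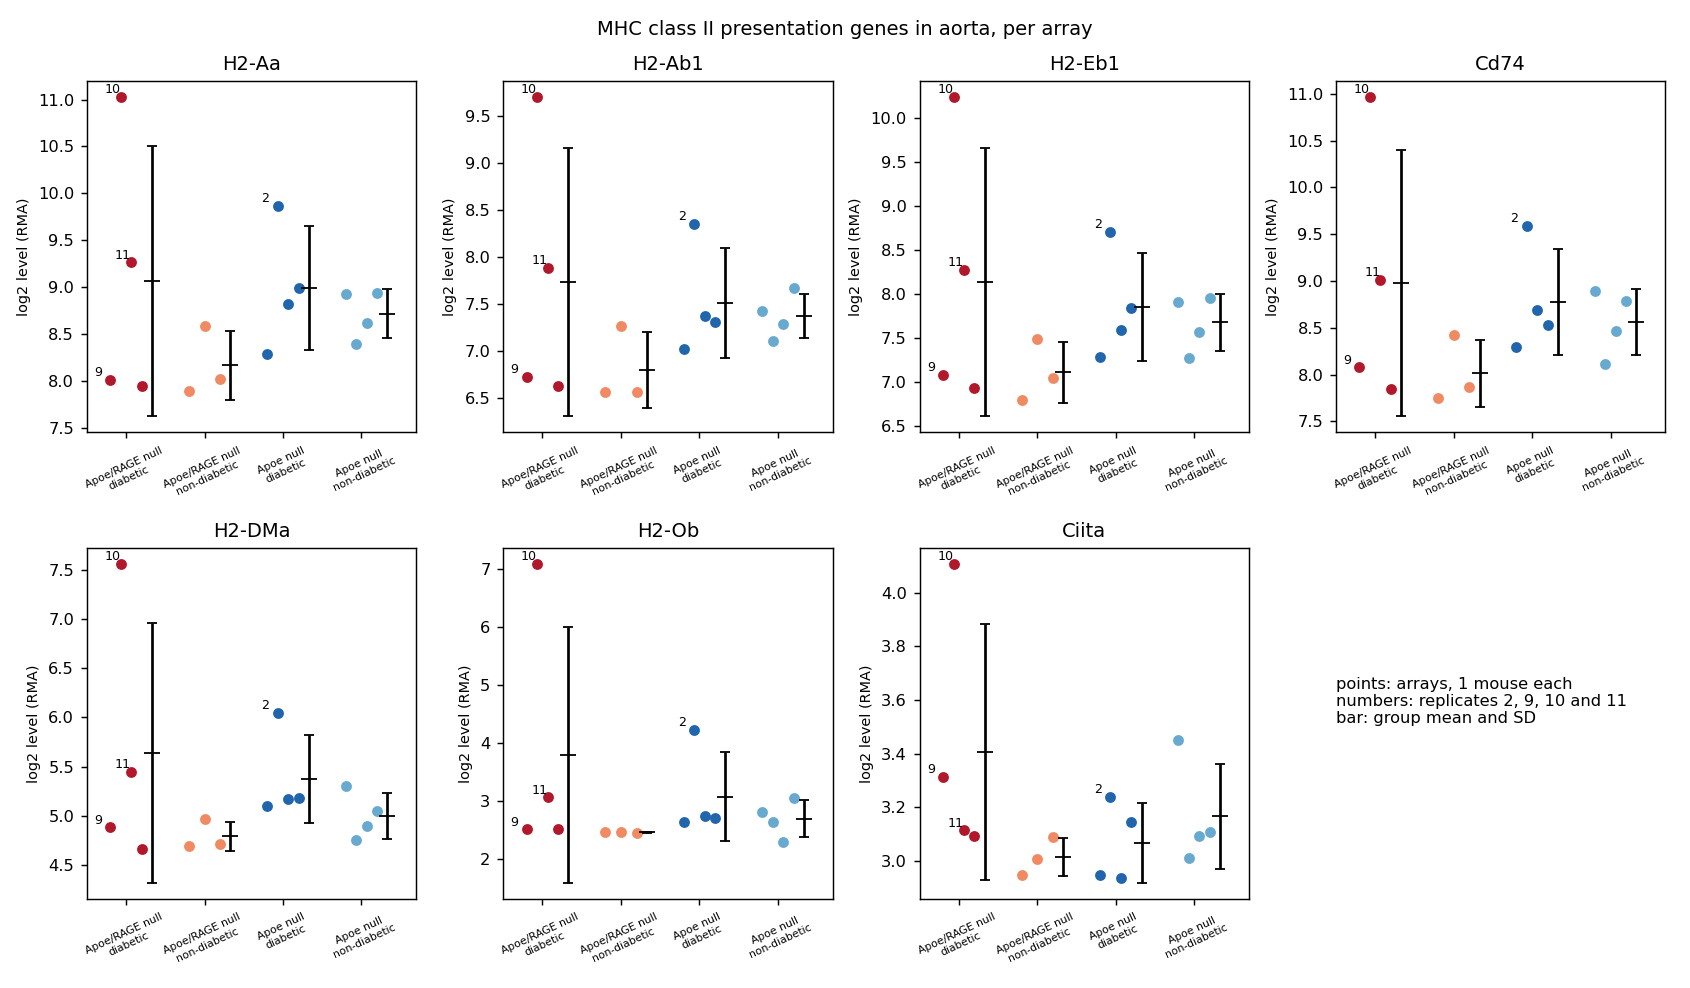
Level (log2, RMA) of the 7 measured genes on each array, by group, with the group mean and SD as the bar. Numbers mark replicates 2, 9, 10 and 11. Replicate 10 is the top point in all 7 panels, and replicate 2 is the second highest in every panel but that of Ciita.

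H2-Aa encodes the alpha chain of the I-A molecule, the class II molecule that C57BL/6 mice display. Its level was 8.01, 11.03, 9.27 and 7.95 in diabetic Apoe/RAGE null replicates 9 to 12 and 7.89, 8.58 and 8.02 in non-diabetic Apoe/RAGE null mice. It was 8.28, 9.87, 8.82 and 8.99 in diabetic Apoe null replicates 1 to 4 and 8.93, 8.39, 8.62 and 8.94 in non-diabetic Apoe null mice. Replicate 10 stood 1.16 above the next array, which was replicate 2, and all 4 groups overlapped. The other 3 probe sets of H2-Aa were also highest in replicate 10, at 10.76, 6.55 and 9.19.

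H2-Ab1 encodes the beta chain that pairs with H2-Aa. It read 6.73, 9.71, 7.88 and 6.62 in diabetic and 6.57, 7.27 and 6.56 in non-diabetic Apoe/RAGE null mice. In Apoe null mice it read 7.02, 8.36, 7.37 and 7.31 with diabetes and 7.42, 7.10, 7.29 and 7.67 without. The order of the high arrays was that of H2-Aa, with replicates 10, 2 and 11 at the top. Both chains of I-A thus shared their high mice, and 3 of 3 probe sets of H2-Ab1 peaked in replicate 10.

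H2-Eb1 encodes the beta chain of the I-E molecule. Its level was 7.08, 10.24, 8.28 and 6.94 in diabetic and 6.80, 7.48 and 7.05 in non-diabetic Apoe/RAGE null mice. It was 7.28, 8.71, 7.59 and 7.85 in diabetic and 7.91, 7.28, 7.57 and 7.96 in non-diabetic Apoe null mice. Replicate 10 was 2.89-fold above replicate 2, the next array, and 6.55-fold above the median of the other 14. H2-Ea, the alpha chain of I-E, which C57BL/6 mice are known not to express, lay between 4.49 and 5.26 on the other 14 arrays and at 4.81 in replicate 10. H2-Ea was picked for mention after its values were seen.

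Cd74, the invariant chain, was the member outside chromosome 17 with the same pattern. It read 8.08, 10.97, 9.01 and 7.84 in diabetic and 7.75, 8.42 and 7.87 in non-diabetic Apoe/RAGE null mice. The diabetic Apoe null mice read 8.30, 9.59, 8.69 and 8.53 and the non-diabetic Apoe null mice 8.89, 8.11, 8.46 and 8.79. Replicate 10 was again highest, by 1.38, and the groups overlapped.

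H2-DMa encodes the alpha chain of the H2-DM peptide exchanger. It read 4.88, 7.57, 5.45 and 4.66 in diabetic and 4.69, 4.96 and 4.71 in non-diabetic Apoe/RAGE null mice. Diabetic Apoe null mice read 5.10, 6.04, 5.17 and 5.17, and non-diabetic Apoe null mice 5.30, 4.75, 4.89 and 5.05. In the diabetic Apoe null group, replicate 2 stood apart from 3 mice that lay within 5.10 to 5.17. A dimmer second probe set of H2-DMa did not show the pattern and was highest in replicate 6, at 3.38 against 3.26 in replicate 10. The probe sets that H2-DMb1, the beta chain of H2-DM, shares with H2-DMb2 reached 5.36 and 7.92 in replicate 10, and both were highest there.

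H2-Ob encodes the beta chain of H2-O, whose expression is known mainly from B cells. Its level was 2.51, 7.09, 3.06 and 2.51 in diabetic and 2.46, 2.46 and 2.45 in non-diabetic Apoe/RAGE null mice, against 2.64, 4.23, 2.74 and 2.70 in diabetic and 2.80, 2.64, 2.29 and 3.06 in non-diabetic Apoe null mice. Replicate 10 was highest and replicate 2 second. The other 13 arrays lay between 2.29 and 3.06, below the array medians, where a level may be no more than background. No fold between arrays is therefore given, and the log2 fold changes of H2-Ob below carry this limit. The probe set that H2-Ob shares with Gm20506 was also highest in replicate 10, at 4.05.

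Ciita, the transactivator of the other members, had low levels and moved least. It read 3.31, 4.11, 3.11 and 3.09 in diabetic and 2.94, 3.01 and 3.09 in non-diabetic Apoe/RAGE null mice. In Apoe null mice it read 2.95, 3.24, 2.93 and 3.14 with diabetes and 3.45, 3.01, 3.09 and 3.11 without. Replicate 10 was highest by 0.66, whereas replicate 5, not replicate 2, was second. All 3 probe sets of Ciita were highest in replicate 10. H2-Ob and Ciita were the 2 members whose mean lay below the median of all probe sets. All levels of Ciita, also in replicate 10, lay below the array medians, where a level may be no more than background. Its small movement and its spread and fold changes below carry this limit.

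The spread within groups was correspondingly large. The pooled SD within groups was 0.74 to 1.23 for the 6 members other than Ciita, which placed them at the 98.3rd to 99.6th percentile of all genes, whose median SD was 0.17. Ciita had an SD of 0.28, at the 85.0th percentile. Without replicate 10 the same 6 members had SDs of 0.34 to 0.54, at the 92.1st to 97.8th percentile, and Ciita 0.15, at the 42.9th. The members thus varied more between mice of 1 group than most genes did, also without that array, except Ciita.

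Markers of several white blood cell types were high in replicate 10, and those of B cells and, by less, of other types also in replicate 2. In bulk tissue, fewer cells of a type and less RNA per cell cannot be told apart, and the same holds for more of either. The mean level of 9 measured B cell genes was 6.50 in replicate 10, against 3.27 to 4.70 on the other 14 arrays, and replicate 2 held the 4.70. Of these genes, 8 of 9 were highest in replicate 10, with Bank1 (8.01 against 3.81 to 5.97), Cd22 (7.24 against 3.97 to 5.24) and Ms4a1 (8.51 against 2.80 to 6.23) the brightest. Pax5 was the exception, at 3.28 in replicate 10 and 3.19 to 3.68 elsewhere, and was picked for mention after its values were seen.

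The other leukocyte lists differed in how far they followed. The mean of 8 T cell genes was 6.72 in replicate 10 and 4.15 to 4.86 elsewhere, with 7 of 8 genes highest there. Plasma cell genes had means of 7.20 and 4.79 to 5.93 (4 of 6), dendritic cell genes 5.17 and 3.94 to 4.39 (6 of 9), and macrophage genes 8.12 and 7.08 to 7.87 (6 of 12). The macrophage markers Lyz2 and Csf1r were bright on all arrays, with 11.53 and 10.69 in replicate 10 and ranges of 9.08 to 10.62 and 9.23 to 9.96 on the others. The mean of neutrophil genes was highest in replicate 11 (4.81), with 4.78 in replicate 10 and 3.81 in replicate 2, but 5 of 8 genes were highest in replicate 10. The brightest, S100a9 and S100a8, both read 6.99 in replicate 10, with at most 5.79 and 5.86 elsewhere. Ltf read 5.36 there and 8.56 in replicate 11.

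The smooth muscle and endothelial lists did not peak in replicate 10. The mean of 8 smooth muscle genes was 10.81 in replicate 10 and 10.59 to 11.50 elsewhere, and 0 of 8 were highest there. Endothelial genes had a mean of 7.30 in replicate 10 and 6.98 to 7.78 elsewhere. The means of adipocyte (9.72, against 9.45 to 10.83) and skeletal muscle genes (7.50, against 4.04 to 9.35) in replicate 10 also lay within the range of the other arrays. Relative to the median of the other 14 arrays, replicate 10 was higher by 2.64 in the mean of the 7 members, by 2.97 in B cell genes, by 2.29 in T cell genes and by 2.14 in skeletal muscle genes. Replicate 2 was higher by 1.12 in the members, 1.20 in B cell genes and 2.36 in skeletal muscle genes, relative to the median of the 13 arrays left. By the same measure it was higher by 0.74 in plasma cell, 0.46 in endothelial, 0.42 in macrophage, 0.36 in T cell and 0.32 in dendritic cell genes. Neutrophil (-0.09), smooth muscle (-0.27) and adipocyte genes (-0.09) were lower there. The part of the marker lists in the members' levels was not tested.

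**Figure D2:**
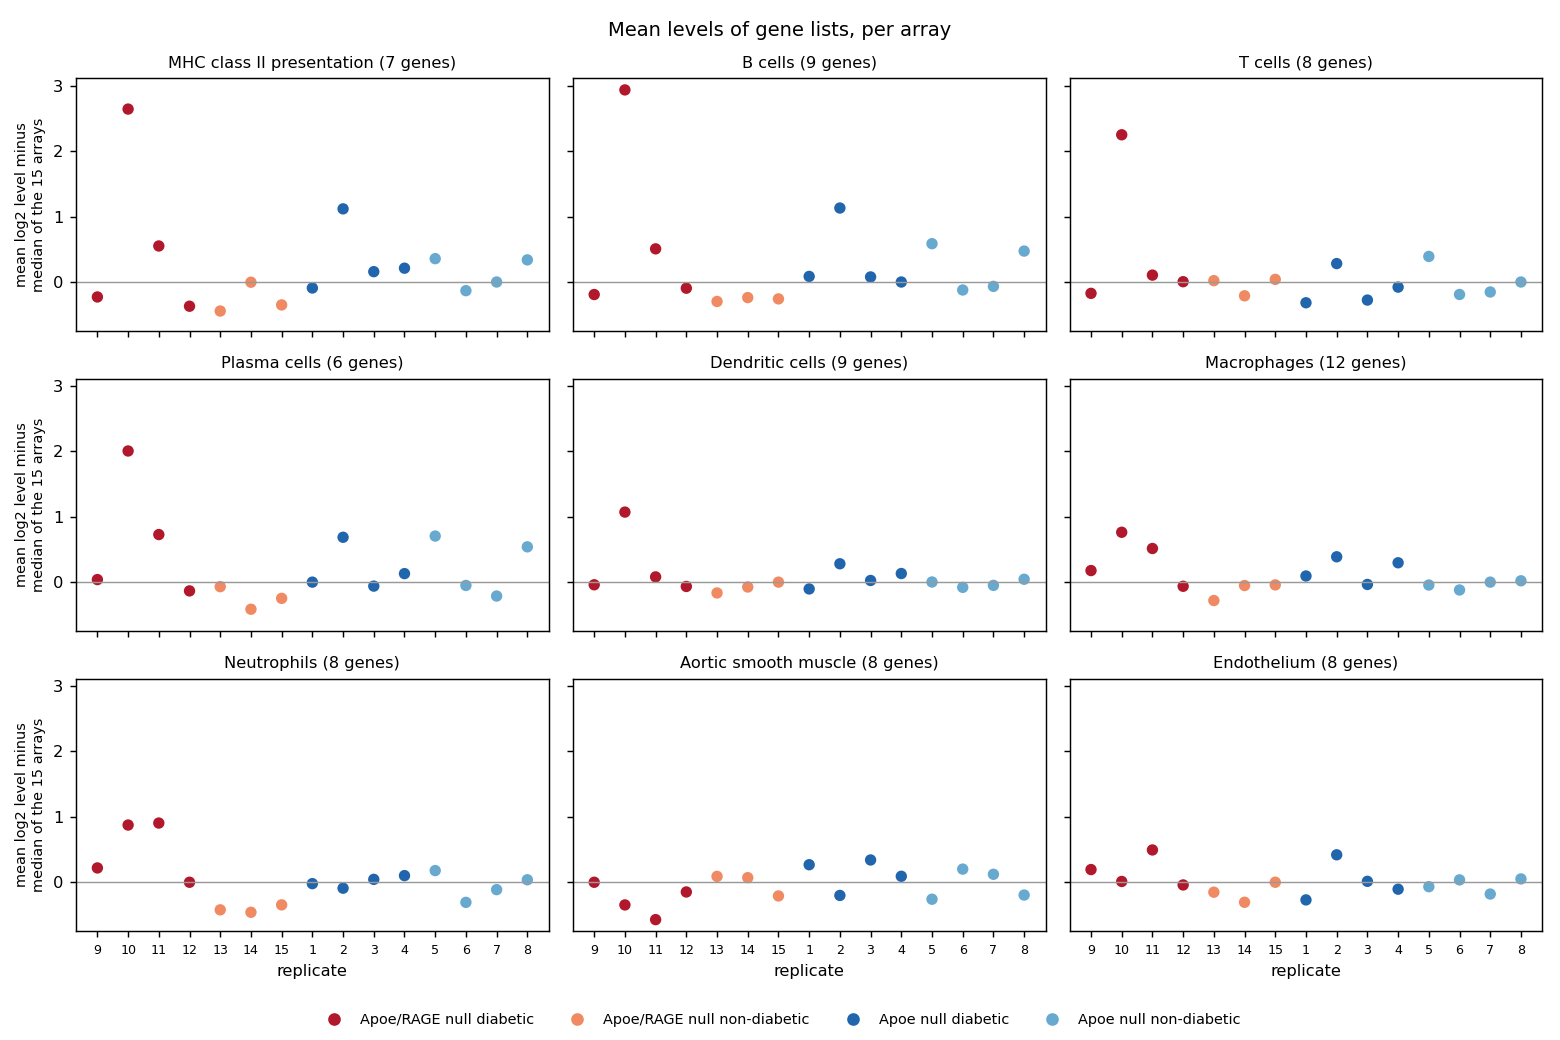
Mean log2 level of each gene list on each array, minus the median of the 15 arrays, coloured by group. The members and the B cell and dendritic cell lists are highest in replicate 10 and second in replicate 2. The T cell list stands far above 0 in replicate 10 alone, and the smooth muscle and endothelial lists lie near 0 there or below it.

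By group, these marker lists ranged widely where replicate 10 was included. The B cell mean spanned 3.38 to 6.50 in diabetic Apoe/RAGE null mice, 3.27 to 3.33 in non-diabetic Apoe/RAGE null mice, 3.57 to 4.70 in diabetic Apoe null mice and 3.45 to 4.15 in non-diabetic Apoe null mice. The members' mean spanned 5.66 to 8.67, 5.59 to 6.03, 5.94 to 7.15 and 5.90 to 6.39 in the same order of groups. Both lists had their lowest and narrowest ranges in the non-diabetic Apoe/RAGE null mice. Skeletal muscle genes had means of 7.50 to 9.35, 4.04 to 5.04, 5.10 to 8.17 and 4.19 to 7.68 in that order.

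Diabetic and non-diabetic Apoe/RAGE null mice were compared first. All 7 members had higher means in diabetic mice, with log2 fold changes of 0.39 (Ciita) to 1.34 (H2-Ob) and a median of 0.94, beside a median of -0.02 over all genes, of which 44.2% had positive fold changes. H2-Eb1, for example, differed by 1.02 ± 0.59 (SE), and its means were 8.13 ± 1.52 in 4 diabetic and 7.11 ± 0.35 in 3 non-diabetic mice (SD). None of the 7 passed limma over all probe sets (adjusted p = 0.696 to 0.736), and 0 of 7 had an unadjusted p under 0.05, beside 0% of probe sets and 7.71% of genes. The values of H2-Ob and Ciita did not overlap between the 2 groups, which held for 6.68% of all genes. For Ciita the gap was between 3.092 and 3.086. For H2-Ob it was between 2.513 and 2.462, and for both genes a level so low may be no more than background. The skeletal muscle list moved with this comparison, at 7.50 to 9.35 in diabetic and 4.04 to 5.04 in non-diabetic mice without overlap. Neutrophil means (3.90 to 4.81 against 3.45 to 3.56) and B cell means (3.38 to 6.50 against 3.27 to 3.33) did not overlap either. In limma, 7 of 8 skeletal muscle, 5 of 8 neutrophil, 7 of 12 macrophage and 1 of 9 B cell genes had an unadjusted p under 0.05, beside 7.71% of all genes. The same held for 2 of 6 plasma cell, 2 of 9 dendritic cell, 2 of 8 endothelial and 1 of 6 adipocyte genes, and for 0 of 8 T cell and 0 of 8 smooth muscle genes. Replicates 9 and 10 are included in these counts. The part of these lists in the members' difference was not tested.

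Much of this difference came from 1 mouse. Without replicate 10 the median fold change of the members was 0.24, with single genes at 0.16 to 0.32, and without replicates 9 and 10 it was 0.41, at 0.09 to 0.50. All 7 stayed positive in both, and the smallest adjusted p in limma was 0.999 in each. Without replicates 9 and 10 the diabetic group held only replicates 11 and 12. Replicate 12 lay below the non-diabetic mean in H2-Aa (7.95 against 8.17), H2-Ab1 (6.62 against 6.80) and H2-Eb1 (6.94 against 7.11). The same held for Cd74 (7.84 against 8.02) and H2-DMa (4.66 against 4.79), but not for H2-Ob and Ciita. The share of probe sets called was 0% in both settings.

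The same question was put to the Apoe null mice. Here 6 of 7 members had higher means in diabetic mice, with fold changes of -0.10 (Ciita) to 0.38 (H2-Ob) and a median of 0.21, where 49.8% of all genes were positive. None passed limma (adjusted p = 0.821 to 0.951), and 0 of 7 had an unadjusted p under 0.05, beside 0% of probe sets and 13.2% of genes. No member separated the groups, which held for 7.62% of all genes. Cd74 averaged 8.78 ± 0.56 in diabetic and 8.56 ± 0.35 in non-diabetic mice (SD, n = 4 each). Without replicate 2, which had a B cell mean below that of replicate 10 alone, the median was -0.06 and 6 of 7 members were negative, with H2-DMa at 0.15.

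Within diabetes, the genotypes were compared next. All 7 members had higher means in diabetic Apoe/RAGE null than in diabetic Apoe null mice, but by small amounts: from 0.07 (H2-Aa) to 0.72 (H2-Ob), median 0.27, where 49.4% of all genes were positive. None passed limma (adjusted p = 0.405 to 0.969), and 0 of 7 had an unadjusted p under 0.05, beside 0.244% of probe sets and 17.9% of genes. The groups overlapped for 7 of 7 members, whereas 7.73% of all genes did not overlap. This direction rested on replicate 10. Without it the median was -0.42, with 6 of 7 members negative, H2-Aa at -0.58 and Ciita alone positive at 0.11. Without replicates 9 and 10 the median was -0.29, again with 6 of 7 negative, and the smallest adjusted p in limma was 0.609. The share of probe sets called was 0.00444% without replicate 10 and 0.0488% without both.

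The means compared between the genotypes without diabetes come from none of the arrays placed against their label, but the p-values use the spread of all 15 arrays. All 7 members had lower means in Apoe/RAGE null mice. H2-Ab1 averaged 6.80 ± 0.41 (SD, n = 3) in Apoe/RAGE null and 7.37 ± 0.24 (SD, n = 4) in Apoe null mice. H2-Aa averaged 8.17 ± 0.37 and 8.72 ± 0.27, and Cd74 8.02 ± 0.36 and 8.56 ± 0.35, in the same groups. The fold changes were -0.58 to -0.15, median -0.55, where 50.6% of all genes were positive. None passed limma (adjusted p = 1.00 for each), and 0 of 7 had an unadjusted p under 0.05, beside 0% of probe sets and 2.62% of genes. In each member the highest Apoe/RAGE null array overlapped the Apoe null range, which was not so for 4.87% of all genes. The interval around the fold change of H2-Ab1 ran from -1.77 to 0.62 (95%, limma). These p-values depended on replicate 10: the smallest unadjusted one, 0.319, was 0.103 in limma without that array. With only the non-diabetic groups in the limma fit, 4 of 7 members had an unadjusted p under 0.05, beside 3.39% of genes. These unadjusted p-values were 0.0168 for H2-Ab1, 0.0187 for H2-Aa, 0.0215 for H2-Eb1 and 0.0328 for Cd74. As the levels of these 4 genes moved together across the arrays, they are not 4 independent results. None passed after adjustment in that fit (adjusted p = 1.00 for each), where 0.0111% of probe sets did.

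The difference between the diabetes effects of the 2 genotypes was tested as an interaction. It was positive for all 7 members (0.48 to 0.96, median 0.75), where 49.8% of all genes were positive, and passed for none (limma adjusted p = 0.734 to 0.897, 0 of 7 at an unadjusted p under 0.05, beside 0% of probe sets and 8.57% of genes). Without replicate 10 its median was 0.08 and 4 of 7 were positive, and without replicates 9 and 10 it was 0.19 and 5 of 7. The comparisons share groups and are not independent of each other.

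**Figure D3:**
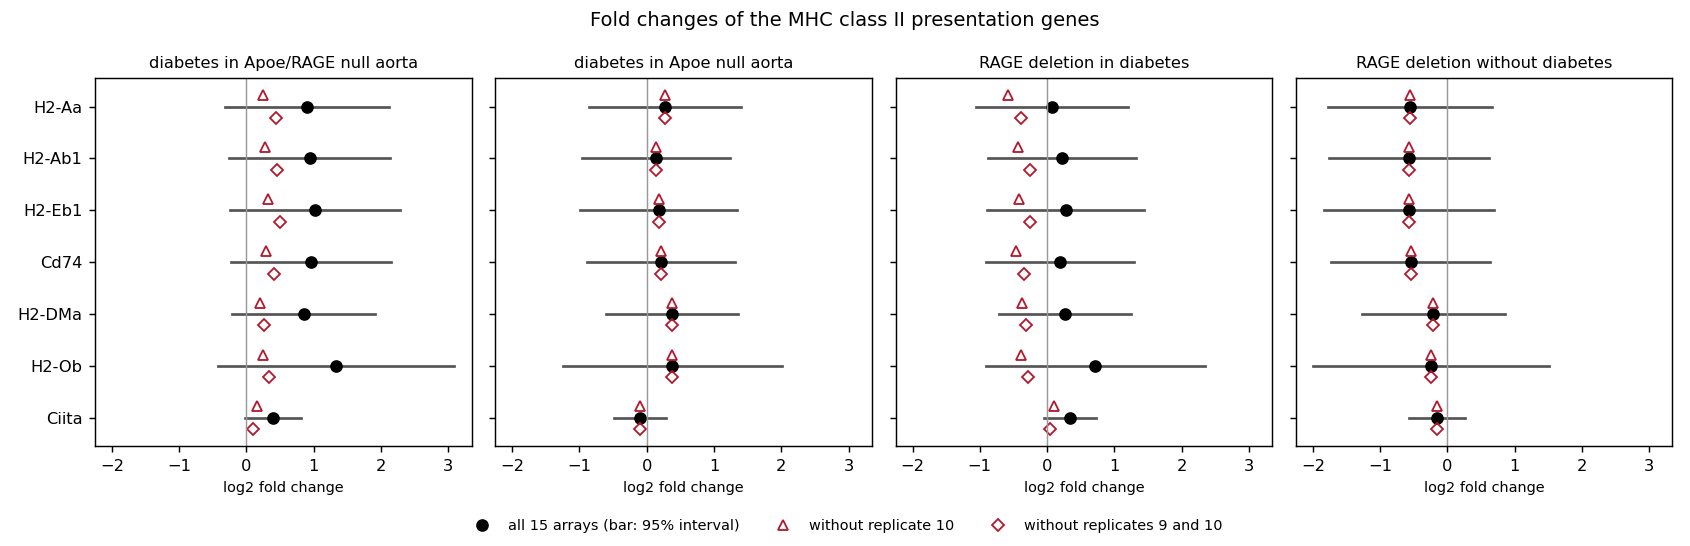
Log2 fold change of each member in the 4 comparisons (black, all 15 arrays, with the 95% interval of limma) and without replicate 10 (triangles) or replicates 9 and 10 (diamonds). All intervals include 0, and in the panel of RAGE deletion in diabetes the open symbols lie below 0 for every gene but Ciita.

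Group order followed the same arrays. In 6 of 7 members the mean was highest in diabetic Apoe/RAGE null mice, then in diabetic Apoe null, non-diabetic Apoe null and non-diabetic Apoe/RAGE null mice. For Ciita the middle groups changed places. For the 6 members each pair of neighbours in that order was compared above, and none passed limma. With replicate 10 left out the mean of H2-Aa in diabetic Apoe/RAGE null mice, 8.41 ± 0.74, lay below the 8.72 ± 0.27 of non-diabetic Apoe null mice.

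Other genes of antigen presentation were examined from a list of 26, of which 25 were measured. None passed limma over all probe sets in any of the 5 fits, and 4, 5, 4, 0 and 3 of 25 had an unadjusted p under 0.05 for diabetes in Apoe/RAGE null, diabetes in Apoe null, RAGE deletion in diabetes, RAGE deletion without diabetes and the interaction. These are 16%, 20%, 16%, 0% and 12% of the list, beside 7.71%, 13.2%, 17.9%, 2.62% and 8.57% of all genes. With diabetes in Apoe/RAGE null mice these were Cd40, a costimulatory receptor (0.66 ± 0.24, SE), Ctss, the protease cathepsin S that degrades the invariant chain (1.03 ± 0.42), the interferon-induced factor Irf1 (0.49 ± 0.20) and the interferon-gamma receptor chain Ifngr2 (-0.59 ± 0.19), each with a limma adjusted p of 0.674. Without replicate 10 they were 0.38, 0.52, 0.30 and -0.54 in the same order, and without replicates 9 and 10 0.34, 0.52, 0.41 and -0.39. In Apoe null mice the smallest p belonged to the protease Lgmn (0.40 ± 0.10, adjusted p = 0.288), followed by Rfxank (-0.35), a subunit of the X box binding complex, Creb1 (0.36), Nfya (0.37), a subunit of the Y box binding complex, and the protease Ctsl (0.28). With RAGE deletion in diabetes, Ifngr2 (-0.66 ± 0.18, adjusted p = 0.112), Lgmn (-0.31) and Nfya (-0.41) were lower and Ifngr1 (0.29) was higher at an unadjusted p under 0.05. These were -0.61, -0.40, -0.46 and 0.18 without replicate 10 and -0.46, -0.38, -0.38 and 0.18 without replicates 9 and 10, in that order.

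The list was uneven in replicate 10. Of the 25 genes, 11 were highest there, 5 of them by at least 1, beside 12.3% and 1.75% of all genes. H2-Oa read 7.55 in replicate 10 and 3.46 to 4.44 elsewhere, and H2-DMb2 7.09 and 3.86 to 4.77. H2-Oa, which forms H2-O with H2-Ob, was picked for mention after its values were seen. Ctss read 10.71 in replicate 10 and 8.03 to 9.32 elsewhere. Of the factors in the list that bind the X and Y boxes (Rfx5, Rfxank, Rfxap, Nfya, Nfyb, Nfyc and Creb1), 0 were highest there, beside 12.3% of all genes. In so short a list this cannot be told apart from that share. Rfx5 was nearly so, at 7.428 in replicate 10 and 6.718 to 7.431 elsewhere. Rfxank read 5.23 in replicate 10 and 5.15 to 5.83 elsewhere, Rfxap 5.61 and 5.46 to 5.93, and Nfya 6.53 and 6.07 to 7.12. Nfyb read 7.32 and 6.76 to 7.42, Nfyc 8.11 and 7.92 to 8.39, and Creb1 9.20 and 8.60 to 9.27.

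All other measured genes were ranked by their likeness to the members' mean, centred per gene, as Spearman's rho over 15 arrays. This is a description, since the arrays share replicates 10 and 2 as extremes. The 10 most like were E330020D12Rik, Syk, Tlr1, Cybb, AB124611, Lcp1, Cd48, Ly86, H2-DMb2 and Nlrc5, at 0.95 to 0.90. Syk is a kinase downstream of antigen and Fc receptors, Tlr1 a Toll-like receptor, Cybb a subunit of the phagocyte oxidase, Lcp1 the leukocyte plastin, and Nlrc5 the transactivator of MHC class I genes. All 10 were highest in replicate 10, such as Lcp1 with 9.63 there and 5.72 to 7.54 elsewhere, and the same 10 ranked first without it. Among the members themselves, the likeness to that mean was 0.996 for H2-Eb1 and Cd74, 0.979 for H2-Aa and H2-Ab1, 0.950 for H2-DMa, 0.833 for H2-Ob and 0.597 for Ciita.

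Of the 8 genes, 6 lie on chromosome 17 within 1 Mb of Ager, all on the same side of it. The number of protein-coding genes between each and Ager is 9 for H2-Eb1, 10 for H2-Aa, 11 for H2-Ab1, 12 for H2-Ob, 17 for H2-DMb1 and 19 for H2-DMa. Cd74 lies on chromosome 18 and Ciita on chromosome 16. The fold change of Cd74 with RAGE deletion, 0.20 in diabetes and -0.55 without it, lay within the range of the 5 measured members on chromosome 17 (0.07 to 0.72 and -0.58 to -0.21). For Ciita it was 0.34 in diabetes, within that range, and -0.15 without diabetes, outside the range. Without replicate 10 the values in diabetes were -0.47 for Cd74 and 0.11 for Ciita, against -0.58 to -0.38 for those 5. A part of the position near Ager in these values was not tested.

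Among the 56 measured genes of the 61 protein-coding genes up to 30 on either side of Ager, Ager included, 6 had an unadjusted p under 0.05 for RAGE deletion in diabetes (10.7%, beside 17.9% of all genes) and 4 without diabetes (7.14%, beside 2.62%), and 0 of these were members. In diabetes 2 of the 56 passed limma over all probe sets, beside 0.244% of probe sets. These were Hspa1b (-1.41, limma adjusted p = 0.043) and Hspa1a (-1.68, adjusted p = 0.047), heat shock genes on the other side of Ager from the members. Without replicate 10 neither passed (Hspa1b -1.34, limma adjusted p = 0.105, and Hspa1a -1.50, adjusted p = 0.109). Without replicates 9 and 10 Hspa1b passed (-1.68, limma adjusted p = 0.023) and Hspa1a did not (-1.80, adjusted p = 0.077). They were picked for mention because they were the calls in this window. Rnf5, the gene next to Ager and 1 of the 6 placing genes, had a fold change of 0.51 without diabetes, opposite in sign to all members.

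**Figure D4:**
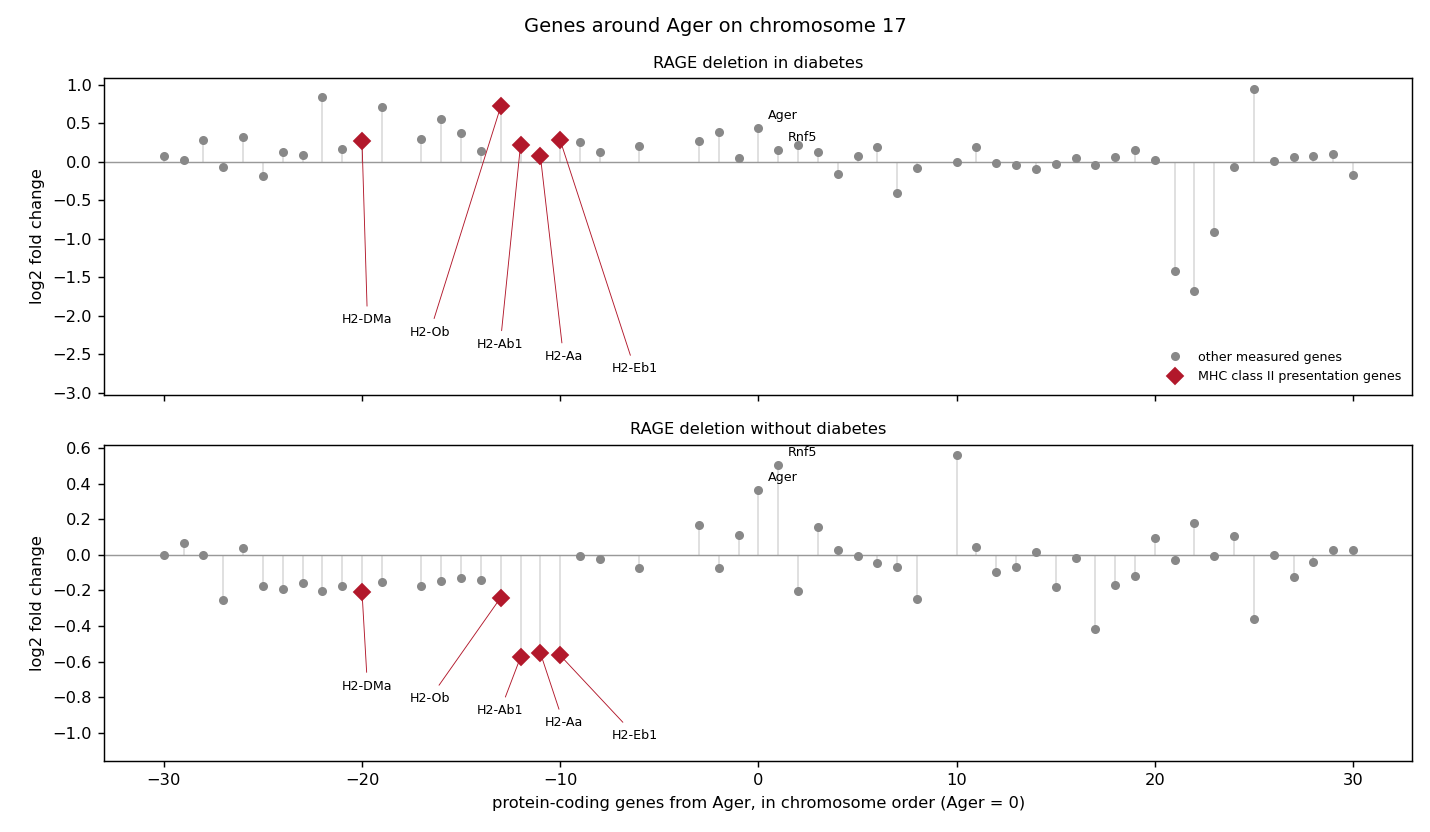
Log2 fold change with RAGE deletion, in diabetes (top) and without it (bottom), for 56 measured genes in chromosome order around Ager. The 5 measured members on chromosome 17 (diamonds) lie between 0.07 and 0.72 in diabetes and between -0.58 and -0.21 without it.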

How the data were processed

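RNA from 15 aortas was hybridized to Affymetrix mouse arrays. The authors deposited log2 values, and per the submitters' processing notes these come from RMA, with no version named. The series' design text says that arrays were normalized together at each combination of genotype and disease state, and whether that means 1 run or several is not given in the sources used here. Values were used as deposited. A sample of the non-diabetic Apoe/RAGE null group had been lost before hybridization, per that text. No depth applies to arrays, and their number limits the precision.

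Of 45101 probe sets, 64 controls were left out. The platform annotation of 2016 gave 34945 probe sets 1 gene, 932 several and 9160 none named here, and 34741 of those with 1 gene matched the reference gene table (GRCm38.p6). A linear model with 4 group means was fitted to all 15 arrays in limma 3.58.1 (R 4.3.3), with empirical Bayes and a Benjamini-Hochberg threshold of 0.05 over 45037 probe sets. The fit was tested on simulated data. Promoter windows and figures used Python 3.11.15 and matplotlib 3.10.9.

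The members and lists were chosen with earlier results of these data known. Named genes were the members, the 5 genes of the presentation list with the smallest p in each comparison, the 10 genes most like the members, Ager and 6 placing genes, and up to 3 of the brightest markers of each cell type list. Alternatives were arrays left out, the compared groups alone, B above 0, limma array weights, a robust variance with a trend, centring on array medians, quantile normalization, omission of dim probe sets or of those prone to shared probes, a fit with 1 probe set for each gene, and the other probe sets of a gene.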

Additional observations from a re-analysis of the deposited data

Results flagged for a closer look

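In each group of 4 arrays and each member probe set, the gap between the most extreme array and its neighbour was divided by the group's range and set against Dixon's critical value of 0.829. Of 45 such groups, 3 exceeded it, and chance flags about 1 in 20 groups. The groups are not independent, since the probe sets share arrays. H2-Ob in replicate 10, labelled diabetic Apoe/RAGE null, was at 7.09 with the other 3 mice at 2.51 to 3.06 (ratio 0.880). H2-Ob in diabetic Apoe null replicate 2 was at 4.23 with the others at 2.64 to 2.74 (0.940). H2-DMa in the same replicate 2 was at 6.04 with the others at 5.10 to 5.17 (0.919).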

How the results depend on the processing

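Of 1085 values recomputed under 36 settings, 1022 were classed as the same. For single members this meant the same direction and side of the threshold, and for counts a value within 1.5 times. A median over the members counted as the same within 0.79, the pooled within-group SD of the members' mean, whatever its sign. Among the 1022 are thus medians that changed sign, as without replicate 10 for RAGE deletion in diabetes. No value of a member passed the threshold in any of these settings. At an unadjusted p under 0.05, which no member reached with all 15 arrays in the fit, some did in limma for diabetes in Apoe/RAGE null mice without replicate 9, 11 or 12 (smallest unadjusted p = 0.0378, 0.0309 and 0.0276), and Ciita alone for RAGE deletion in diabetes and the interaction without replicate 11 or 12. Outside the settings that leave out 1 array, 11 of 318 member values changed sign. Without replicates 9 and 10, RAGE deletion in diabetes gave -0.38 for H2-Aa, -0.26 for H2-Ab1, -0.25 for H2-Eb1, -0.32 for H2-DMa, -0.29 for H2-Ob and -0.35 for Cd74, and the interaction gave -0.11 for H2-DMa and -0.048 for H2-Ob. Other probe sets gave 0.020 for Ciita and -0.20 for H2-DMa with diabetes in Apoe null mice and -0.045 for H2-DMa with diabetes in Apoe/RAGE null mice. The cause was not tested. Leaving out 1 array at a time, the members' median ranged from -0.059 to 0.37 for diabetes in Apoe null mice (lowest without replicate 2), from 0.24 to 1.31 for diabetes in Apoe/RAGE null mice, from -0.42 to 0.59 for RAGE deletion in diabetes and from 0.08 to 1.12 for the interaction (lowest without replicate 10 in these 3), and from -0.75 to -0.41 for RAGE deletion without diabetes. Single members that changed sign so were, with diabetes in Apoe null mice, H2-Aa (-0.022 to 0.51), H2-Ab1 (-0.14 to 0.31), H2-Eb1 (-0.10 to 0.37), H2-Ob (-0.0045 to 0.52) and Cd74 (-0.059 to 0.37). With RAGE deletion in diabetes they were H2-Aa (-0.58 to 0.45), H2-Ab1 (-0.44 to 0.59), H2-Eb1 (-0.42 to 0.68), H2-DMa (-0.38 to 0.59), H2-Ob (-0.38 to 1.15) and Cd74 (-0.47 to 0.58), and in the interaction H2-Aa (-0.028 to 1.00), H2-DMa (-0.17 to 0.80) and H2-Ob (-0.14 to 1.39).

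Counts of probe sets past the threshold over the whole array were 0 for diabetes in either genotype, for RAGE deletion without diabetes and for the interaction, and 110 for RAGE deletion in diabetes. With only the compared groups in the fit they were 5 for diabetes in Apoe null mice, 12 for diabetes in Apoe/RAGE null mice, 5 for RAGE deletion without diabetes and 0 for RAGE deletion in diabetes. For diabetes in Apoe null mice and RAGE deletion in diabetes they were 1 and 253 without dim probe sets, 7 and 53 with array weights, 1 and 72 with 1 probe set per gene, and 76 and 321 at B above 0, where diabetes in Apoe/RAGE null mice gave 4. Quantile normalization and leaving out probe sets that can share probes each gave 1 for diabetes in Apoe null mice. Without replicates 9 and 10, RAGE deletion gave 9 without diabetes and 22 in diabetes. With 1 array left out the ranges were 0 to 3, 0 to 49 (diabetes in Apoe/RAGE null mice) and 0 to 931 (RAGE deletion in diabetes). Of the 10 genes most like the members, 2 were shared with the ranking by Pearson's r and 2 with the ranking of deviations from group means. No paired analysis was possible because the replicate numbers run from 1 to 15 and the groups share none. The number of mice, 3 or 4 per group, and the spread that replicate 10 adds to the shared estimate limit the precision.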
